A study of Mus musculus with 6 samples.

Results

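Bsn, Pclo, Rims1, Rims2, Unc13a, Syn1, Syn2, Syn3, Sv2a and Sv2b encode the large scaffolds of the presynaptic active zone, the priming factors bound to them, the synapsins and the SV2 proteins of synaptic vesicles. They were taken by gene symbol and are 10 of 45495 named genes in the count table. All 10 passed the filter on low counts and are among the 15419 genes tested. RNA was sequenced from homogenised prefrontal cortex of mice aged 8 postnatal weeks. Of the 6 libraries, 3 carry the label wild type and 3 the label 16p11.2 duplication (heterozygous), which in the mouse is an extra copy of a segment of chromosome 7. Both groups come from a line made on a hybrid background of C57BL/6N and 129Sv and then backcrossed to C57BL/6 for 10 generations. Total RNA was extracted with Trizol and made into stranded libraries depleted of ribosomal RNA. Whether each library is 1 animal is not in the labels, and p-values therefore reflect variation among these libraries, which may be technical in part. The labels give no sex. Within each group, replicates 1 and 3 differed in the transcripts that mark the sexes, given below, so they were not repeats of the same animal. The comparison asks how the transcripts of these genes differ between duplication and wild type cortex. None of the 10 genes lies in the duplicated segment.

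The active zone is the patch of presynaptic membrane where synaptic vesicles dock and release transmitter. Bassoon and piccolo are very large scaffold proteins that assemble this site, RIM proteins tether vesicles and calcium channels there, and Munc13 proteins make docked vesicles ready for fusion. Synapsins coat vesicles and hold a reserve pool in place under the control of kinases, and SV2 proteins are glycoproteins of the vesicle membrane that support release. In the cortex these genes are expressed mainly by neurons.

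Libraries held 12988457 to 21872271 counts, and levels in CPM (counts scaled to library size) below use TMM-scaled library sizes. Names in the deposited table stood up to 6 lines away from their counts and were re-aligned before use. Unc13a, the closest of the 10 to a step in the offset, lies 148 lines away from one. On the first principal component, which held 45.5% of the variance, wild type replicates 1 and 3 were at -27.2 and -26.7, and the other 4 libraries between 4.05 and 24.8. Wild type replicate 2 thus stood apart from the other wild type libraries, on the side of the duplication libraries. Xist, the RNA of the inactive X chromosome of females, was at 0, 148 and 258 CPM in wild type replicates 1 to 3 and at 0, 141 and 161 CPM in duplication replicates 1 to 3. The summed level of 4 Y-linked genes was 199, 12.3 and 0.292 CPM in wild type and 210, 12.3 and 0.629 CPM in duplication replicates 1 to 3. The libraries numbered 2 of both groups therefore held both Xist and Y-linked transcripts. The 9 neuron markers summed to 9153 to 9786 CPM in the wild type libraries and 9257 to 9657 CPM in the duplication libraries, with 0 of them at 0 in any library.

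The levels of Bsn, Pclo and Syn1 in the duplication libraries were 0.43 to 0.49 times those of wild type by the fitted fold change, but 1 wild type library lay within the range of the duplication libraries, and none was called. None of the 10 genes passed an adjusted p under 0.05 over all genes (edgeR quasi-likelihood test with Benjamini-Hochberg adjustment), against 0% of the 15419 tested genes. DESeq2 also called 0 of the 10, against 2% of its genes, and limma-voom called 0 genes. At an unadjusted p under 0.05 in edgeR, 7 of the 10 were lower and 1 was higher, where 12.2% of all tested genes were lower and 7.05% were higher. The 10 genes were chosen with earlier results of these data known, and several share 1 pattern over the libraries. These counts are therefore a description, and no test of the 10 genes as a set was made. Over the 10 genes the median log2 fold change, duplication over wild type, was -0.26, and over all tested genes it was 0.005. The lower values ranged from -1.20 for Bsn to -0.17 for Rims2. In bulk tissue, fewer cells of a type and less RNA per cell cannot be told apart.

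The number of calls depended on wild type replicate 2 and on whether low counts were filtered. Without wild type replicate 2, 7 of the 10 genes passed, where 15.3% of all genes did: Bsn, Pclo, Unc13a, Syn1, Syn3 and Sv2a fell and Sv2b rose. That fit called 10.7% of all genes lower and 4.62% higher. Without both libraries numbered 2, 6 genes passed, all 6 of them lower, where 8.49% of all genes passed, 7.02% lower and 1.48% higher. With no filter on low counts 4 passed, namely Bsn, Pclo, Syn1 and Syn3, where 3.84% of all genes passed. With the replicate number as a block 0 passed, where 0.0454% of all genes did. Leaving out any of the other 5 libraries gave 0 calls among the 10 genes and 0 among all genes.

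**Figure D1:**
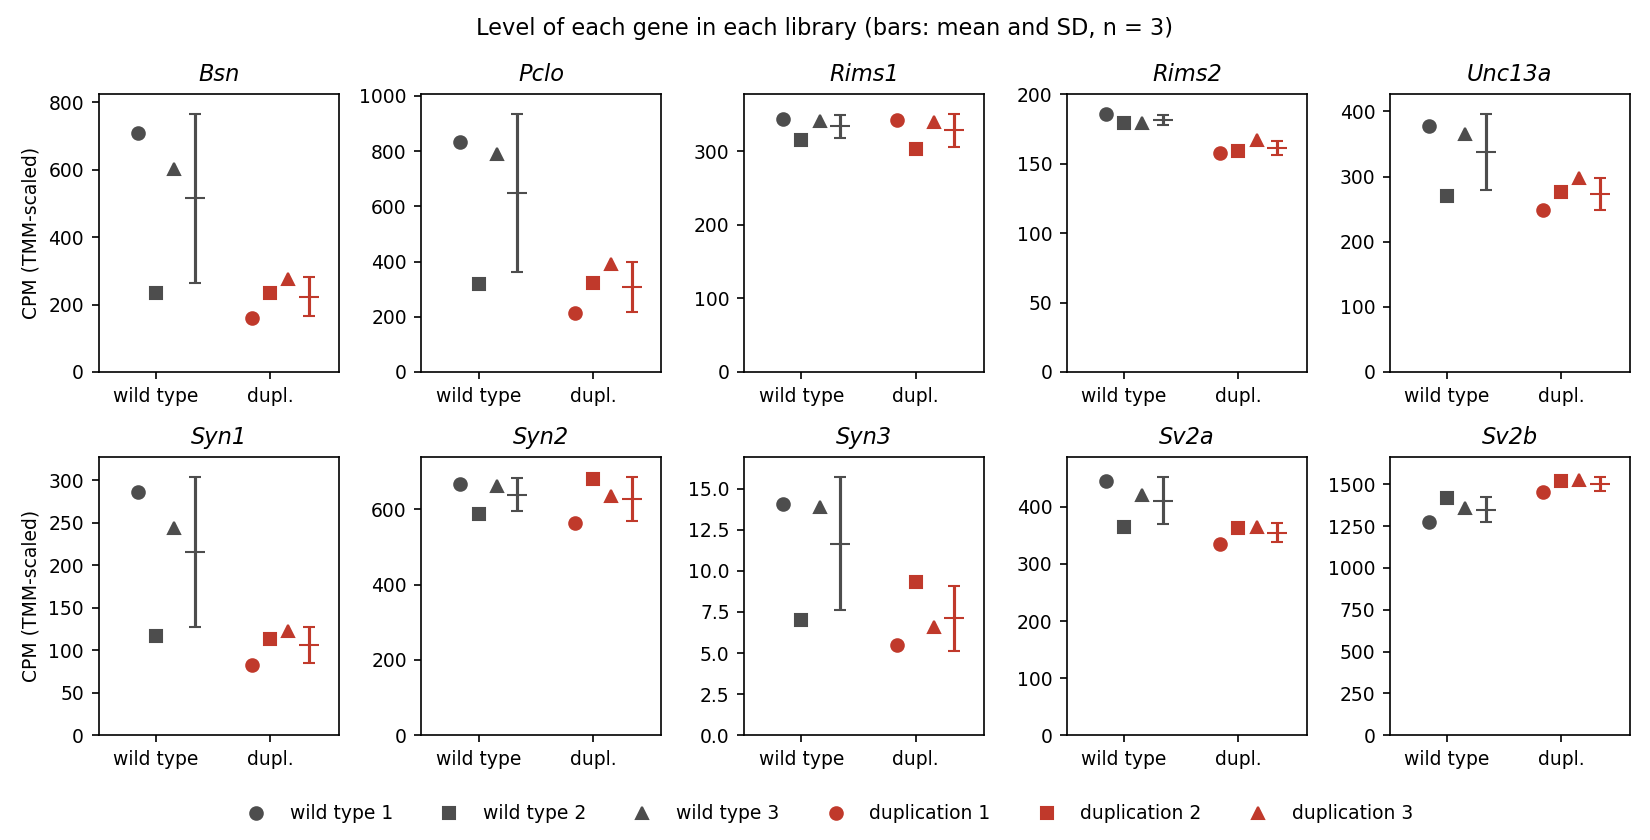
Level of each of the 10 genes in CPM (TMM-scaled, linear axis from 0), with 1 point per library, wild type in grey and duplication in red, the marker shape giving the replicate number, and the mean and SD of 3 libraries beside them. For Bsn, wild type replicates 1 and 3 are at 710.1 and 602 CPM and the other 4 libraries between 160.0 and 276 CPM, while Rims1 and Syn2 differ little between libraries.

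Bsn, which encodes bassoon, lies on the minus strand of chromosome 9 at 108096022 to 108190384 (mm10) and had 31981 counts over the 6 libraries. Its level was 710.1, 233 and 602 CPM in wild type replicates 1 to 3 and 160.0, 236 and 276 CPM in duplication replicates 1 to 3. Wild type replicates 1 and 3 were high, and wild type replicate 2 lay inside the range of the duplication libraries, so the groups overlapped. The means were 515 ± 249.9 CPM in the wild type libraries and 224 ± 58.9 CPM in the duplication libraries (SD, n = 3). The log2 fold change was -1.20 ± 0.35 (SE), with a 95% interval of -2.004 to -0.40 and an edgeR adjusted p of 0.174. Of all tested genes, 4.44% had a smaller p. It passed, at -1.56 ± 0.18, once wild type replicate 2 was left out (edgeR, adjusted p = 0.00191; 0.00145 to 0.999 over all alternatives).

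Pclo, which encodes piccolo, the close relative of bassoon, lies on the plus strand of chromosome 5 at 14514918 to 14863459 and had 41636 counts. It was at 835, 317 and 790.4 CPM in wild type replicates 1 to 3 and at 213, 322 and 393 CPM in duplication replicates 1 to 3. The same libraries were high as for Bsn, and the groups overlapped through wild type replicate 2. Its log2 fold change was -1.07 ± 0.34 (SE), with a 95% interval of -1.83 to -0.31 (edgeR, adjusted p = 0.176). With wild type replicate 2 left out, Pclo was at -1.40 ± 0.19 and passed (edgeR, adjusted p = 0.00243; 0.00217 to 0.999 over all alternatives). A log2 fold change of -1 or lower was found for 1.46% of tested genes, and Bsn, Pclo and Syn1 were among them.

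Bassoon and piccolo transcripts followed each other across the libraries. Per kilobase of annotated exon, Bsn was at 14.6 to 44.6 CPM in the wild type libraries and 10.0 to 17.3 CPM in the duplication libraries, and Pclo at 14.1 to 37.2 and 9.47 to 17.5 CPM. The ratio of Bsn to Pclo per kilobase was 1.199, 1.04 and 1.07 across the wild type and 1.06, 1.03 and 0.990 across the duplication replicates 1 to 3. While each gene spread over 3.04-fold and 2.63-fold among wild type libraries, the highest ratio of the 6 libraries was 1.21 times the lowest.

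The windows before the starts of Bsn, Pclo and Syn1 are shown because these 3 genes had the largest fold changes of the 10 and were high and low in the same libraries. Each holds the 250 bases before the RefSeq start of the transcript in GRCm38.p6, written 5′ to 3′ on the strand of the gene. Bsn is at chr9:108190384-108190633 on the minus strand, Pclo at chr5:14514668-14514917 on the plus strand and Syn1 at chrX:20920919-20921168 on the minus strand. The position of Syn1 given further below comes from another annotation and reaches 20921004, so part of its window lies inside the gene as placed there. Distances for Syn1 are counted from the RefSeq start. Capitals mark exact matches to the central letters of the site of the transcription factor NRF1 in Bsn and at the far end of Syn1, and further in Syn1 first to the left part of an RE1 element, bound by the repressor REST, and then to a cyclic AMP response element (CRE).
Bsn: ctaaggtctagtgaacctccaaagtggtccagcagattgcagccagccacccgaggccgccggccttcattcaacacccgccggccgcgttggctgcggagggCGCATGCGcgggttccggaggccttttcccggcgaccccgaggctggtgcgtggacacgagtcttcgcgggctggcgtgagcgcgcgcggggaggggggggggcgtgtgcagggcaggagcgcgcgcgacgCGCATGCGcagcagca
Pclo: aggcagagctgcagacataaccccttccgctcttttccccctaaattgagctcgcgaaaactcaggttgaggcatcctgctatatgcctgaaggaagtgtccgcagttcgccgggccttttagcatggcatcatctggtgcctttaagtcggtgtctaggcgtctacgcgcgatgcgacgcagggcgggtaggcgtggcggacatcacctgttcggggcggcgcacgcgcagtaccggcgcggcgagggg
Syn1: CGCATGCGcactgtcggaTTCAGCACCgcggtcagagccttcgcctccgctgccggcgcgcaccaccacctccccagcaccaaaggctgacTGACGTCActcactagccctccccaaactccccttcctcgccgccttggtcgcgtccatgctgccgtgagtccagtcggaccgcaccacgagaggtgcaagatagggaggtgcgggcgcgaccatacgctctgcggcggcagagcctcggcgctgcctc

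The Bsn window holds the central NRF1 letters CGCATGCG at 147 and again at 16 bases before the start, and the Syn1 window at 250 bases, and 1.55% of 32851 RefSeq windows of the same length hold them on either strand. The Syn1 window also holds the RE1 letters TTCAGCACC at 232 bases and the CRE letters TGACGTCA at 159 bases before the start, found in 0.301% and 1.55% of windows. The Pclo window holds none of these letters but has the GC box GGGCGG at 68 and 35 bases, as 32.7% of windows do. The core letters TCGTG of the site bound by NPAS4 and its partner occur in the windows of Bsn, Syn1 and Syn2, and in 13.3% of all windows. The GC content of the Bsn, Syn1 and Pclo windows was 71.6%, 68.0% and 61.2%, where the median window had 52.4%. The motifs were chosen after the sequences were read and were searched on both strands, and none of the marked matches overlaps another. RefSeq windows were matched for 8 of the 10 genes, and Rims2 and Syn3 had no entry. A match describes letters only and no binding was measured.

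Inside Pclo the table names 6 lines after a genomic clone, which the order of names places between 2 genes annotated within Pclo. Their summed level was 21.7, 9.99 and 23.3 CPM in wild type replicates 1 to 3 and 6.19, 7.82 and 10.5 CPM in duplication replicates 1 to 3. Wild type replicates 1 and 3 were high here too, and wild type replicate 2 lay at 9.99, just under duplication replicate 3, so the groups overlapped. These lines held 144 to 319 counts in wild type and 116 to 167 in duplication libraries, or 2.43% to 3.15% of the counts of Pclo itself. Of the 6, 5 were tested, with log2 fold changes from -1.33 to -0.95, and none passed (edgeR, adjusted p of 0.174 to 0.201). Their place inside Pclo rests on the order of names, which ascends along the chromosome for 99.6% of 41607 neighbouring pairs, not on a coordinate of their own. Gm37247, a TEC transcript annotated inside Bsn on the same strand, held 15 to 34 counts a library. It was at 2.22, 1.46 and 2.34 CPM in wild type replicates 1 to 3 and at 1.09, 1.01 and 2.14 CPM in duplication replicates 1 to 3, so the groups overlapped. Its log2 fold change was -0.51 ± 0.33 (edgeR, adjusted p = 0.413), beside -1.20 for Bsn.

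The RIM genes had small fold changes. Rims1, which encodes RIM1, a tether of vesicles and calcium channels (chromosome 1, 22286251 to 22805994, minus strand), was at 344, 316 and 341 CPM in wild type replicates 1 to 3 and at 343, 303 and 339 CPM in duplication replicates 1 to 3. The groups overlapped over their whole range, and both libraries numbered 2 were the lowest. The log2 fold change was -0.02 ± 0.07 (edgeR, adjusted p = 0.877), with a 95% interval of -0.18 to 0.13.

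Rims2, the closest relative of Rims1 (chromosome 15, 39198261 to 39684372, plus strand), was at 186, 179 and 179 CPM in wild type and at 158, 159 and 167 CPM in duplication replicates 1 to 3. Every wild type library was above every duplication library, wild type replicate 2 included. Its log2 fold change was -0.17 ± 0.06, a wild type level 1.13 times that of the duplication, with a 95% interval of -0.30 to -0.04. It did not pass (edgeR, adjusted p = 0.179), nor did it without wild type replicate 2 (edgeR, adjusted p = 0.0575; 0.0575 to 0.999 over all alternatives). The groups did not overlap for 3 of the 10 genes, Rims2, Sv2a and Sv2b, where this held for 22.1% of all tested genes.

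Unc13a encodes Munc13-1, the main priming factor of excitatory synapses, and lies on the minus strand of chromosome 8 at 71624417 to 71671757. Its level was 377, 270.8 and 365 CPM in wild type replicates 1 to 3 and 248, 276 and 298 CPM in duplication replicates 1 to 3. Wild type replicates 1 and 3 were the 2 highest libraries, and wild type replicate 2 was below 2 duplication libraries. The log2 fold change was -0.30 ± 0.12, with a 95% interval of -0.58 to -0.03 (edgeR, adjusted p = 0.230). Unc13a was at -0.44 ± 0.07 and passed when wild type replicate 2 was left out (edgeR, adjusted p = 0.00546; 0.00546 to 0.999 over all alternatives). Unc13a overlaps Colgalt1 on the opposite strand, which was at 32.1 to 40.3 CPM in the wild type libraries and 37.0 to 37.7 CPM in the duplication libraries.

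The paralogs of these priming factors showed no common direction. Rims3 and Rims4, short RIM forms, were at log2 fold changes of 0.17 ± 0.08 and 0.03 ± 0.09. Unc13b and Unc13c, which encode Munc13-2 and Munc13-3, were at -0.15 ± 0.06 and 0.14 ± 0.08. None of these 4 passed (edgeR, adjusted p of 0.219 to 0.855). Unc13d, a Munc13 form of immune cells, had 14 counts in the wild type and 39 in the duplication libraries and was not tested.

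Of the 3 synapsins, Syn1 and Syn3 were highest in wild type replicates 1 and 3, and Syn2 was not. Syn1 encodes synapsin I, a major vesicle phosphoprotein, and lies on the minus strand of the X chromosome at 20860511 to 20921004. It was at 286, 117 and 243 CPM in wild type replicates 1 to 3 and at 82.3, 113 and 123 CPM in duplication replicates 1 to 3. The libraries split as for Bsn: wild type replicates 1 and 3 were high and wild type replicate 2 lay inside the range of the duplication libraries. Its log2 fold change was -1.02 ± 0.28, with a 95% interval of -1.67 to -0.38 (edgeR, adjusted p = 0.174). Of all tested genes, 3.13% had a smaller p.

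Syn1 passed without wild type replicate 2, at a log2 fold change of -1.32 ± 0.14 (edgeR, adjusted p = 0.00191; 0.00138 to 0.999 over all alternatives). Syn1 is X-linked, and the wild type libraries in which it was high were 1 with Xist at 0 and 1 with Xist at 258 CPM. The lowest library, duplication replicate 1, also had Xist at 0. Syn1 overlaps Araf, the gene of a RAF kinase, on the opposite strand. Araf was at 116, 126 and 120.2 CPM in wild type and at 143, 139 and 137 CPM in duplication replicates 1 to 3, with a log2 fold change of 0.21 ± 0.06 (edgeR, adjusted p = 0.174). No source used here gives the strand setting of the counting, so reads of overlapping genes on opposite strands may not have been kept apart.

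Syn2, which encodes synapsin II (chromosome 6, 115134902 to 115282006, plus strand), was at 668, 588 and 661 CPM in wild type and at 564, 680 and 636 CPM in duplication replicates 1 to 3. The highest library was duplication replicate 2 and the lowest duplication replicate 1, so the groups overlapped fully. The log2 fold change was -0.03 ± 0.08 (edgeR, adjusted p = 0.874), with a 95% interval of -0.21 to 0.16. Timp4, a metalloproteinase inhibitor encoded within Syn2 on the opposite strand, was at 10.2 to 14.2 CPM in the wild type libraries and 11.6 to 13.4 CPM in the duplication libraries.

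Syn3, which encodes synapsin III (chromosome 10, 86055125 to 86498896, minus strand), had 832 counts over the 6 libraries, the fewest of the 10 genes. Its level was 14.1, 7.01 and 13.9 CPM in wild type and 5.47, 9.30 and 6.60 CPM in duplication replicates 1 to 3. Wild type replicates 1 and 3 were again the highest, and wild type replicate 2 lay between duplication replicates 3 and 2. Its log2 fold change was -0.72 ± 0.28, with a 95% interval of -1.35 to -0.10 (edgeR, adjusted p = 0.216). Syn3 passed without wild type replicate 2, at -0.997 ± 0.19 (edgeR, adjusted p = 0.00939; 0.00939 to 0.999 over all alternatives). Timp3, another metalloproteinase inhibitor inside Syn3 on the opposite strand, was more abundant than its host at 48.7 to 55.6 CPM in the wild type libraries and 56.7 to 62.3 CPM in the duplication libraries, with a log2 fold change of 0.17 ± 0.07 (edgeR, adjusted p = 0.239).

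The balance between Syn1 and Syn2 transcripts followed the level of Syn1. Per kilobase of exon, the ratio of Syn1 to Syn2 was 0.913, 0.423 and 0.785 across wild type replicates 1 to 3 and 0.311, 0.356 and 0.411 across duplication replicates 1 to 3. All wild type ratios were above all duplication ratios, wild type replicate 2 by a narrow margin. The exact permutation test gave p = 0.1, two-sided, the smallest that 3 against 3 libraries can give, and 0.2 after adjustment over the 6 ratios computed. The means were 0.707 ± 0.254 and 0.359 ± 0.050 (SD, n = 3). The merged exon length used was 7.031 kb for Syn2 and 3.299 kb for Syn1, whose longest transcripts have 3854 and 3261 bases. The ratio of Syn1 to Syn2 is thus higher by this measure than per transcript length, by the same factor in every library. The ratio of Syn3 to Syn2 was 0.0121, 0.00682 and 0.0120 across the wild type and 0.00554, 0.00784 and 0.00594 across the duplication replicates 1 to 3, and the groups overlapped (exact permutation p = 0.2).

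In the main edgeR fit, with all 6 libraries, TMM factors and genotype alone in the model, Sv2a and Sv2b had fold changes of opposite sign. Sv2a, the form found at nearly all synapses (chromosome 3, 96181151 to 96195521, plus strand), was at 445, 365.1 and 421 CPM in wild type and at 335, 363.6 and 364.6 CPM in duplication replicates 1 to 3. Wild type replicate 2 was above duplication replicate 3 by less than 1 CPM, so only that margin kept the groups from overlapping. The log2 fold change was -0.21 ± 0.08, with a 95% interval of -0.39 to -0.03 (edgeR, adjusted p = 0.213). Sv2a passed without wild type replicate 2, at -0.29 ± 0.06 (edgeR, adjusted p = 0.0115; 0.0115 to 0.999 over all alternatives).

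Sv2b, abundant in excitatory neurons of the forebrain (chromosome 7, 75114894 to 75309262, minus strand), was at 1272, 1417 and 1357 CPM in wild type and at 1452, 1518 and 1527.5 CPM in duplication replicates 1 to 3. Every duplication library was above every wild type library, and wild type replicate 1 was the lowest. In the main edgeR fit, with all 6 libraries, Sv2b was the only one of the 10 genes with a positive log2 fold change, 0.15 ± 0.06. This was a 1.11-fold higher level, with a 95% interval of 0.02 to 0.29 for the log2 fold change (edgeR, adjusted p = 0.219). Sv2b passed without wild type replicate 2, at 0.19 ± 0.05 (edgeR, adjusted p = 0.0468; 0.0468 to 0.999 over all alternatives). Sv2b shares chromosome 7 with the duplicated segment but lies outside it.

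Sv2c, the third SV2 gene, was at 40.4, 20.3 and 27.7 CPM in wild type and at 18.8, 17.2 and 19.0 CPM in duplication replicates 1 to 3, a log2 fold change of -0.68 ± 0.21 (edgeR, adjusted p = 0.175). Its groups did not overlap. The ratio of Sv2a to Sv2b per kilobase was 0.633, 0.466 and 0.561 across the wild type and 0.417, 0.433 and 0.432 across the duplication replicates 1 to 3. Here too every wild type value was above every duplication value (exact permutation p = 0.1, the smallest possible; 0.2 adjusted over 6 ratios). The ratio of Rims1 to Rims2 was lower in wild type, at 2.48 to 2.69, than in duplication libraries, at 2.69 to 3.07, with no overlap by a margin under 0.01 (exact permutation p = 0.1). The ratio of Unc13a to Unc13b overlapped between the groups (exact permutation p = 0.5).

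Per kilobase of exon, Sv2b had the highest level of the 10 genes in wild type cortex, at 161 ± 8.69 CPM per kilobase (SD, n = 3), and Syn3 the lowest, at 0.949 ± 0.328. Between them came Syn2 at 90.9 ± 6.25, Sv2a at 88.5 ± 8.87, Syn1 at 65.3 ± 26.7, Rims1 at 45.4 ± 2.12, Bsn at 32.3 ± 15.7, Pclo at 28.8 ± 12.8, Unc13a at 26.7 ± 4.61 and Rims2 at 17.5 ± 0.350. Neighbours from Syn2 to Unc13a in this order did not differ beyond their spread. The length used was that of all annotated exons of a gene, merged over its transcripts. It was 10.39 kb for Rims2 and 12.28 kb for Syn3, whose longest transcripts have 4800 and 4006 bases. For Syn2 and Sv2b it was 7.031 and 8.381 kb, with longest transcripts of 3854 and 5524 bases. For Bsn it was 15.94 kb, the length of its longest transcript. The levels of Rims2, Syn3, Syn2 and Sv2b are thus lower by this measure than per transcript length, and an order by transcript length was not computed. In the duplication libraries Sv2b, Syn2 and Sv2a kept the first places, at 179, 89.1 and 76.5 CPM per kilobase. Bsn and Pclo, at 14.0 ± 3.70 and 13.8 ± 4.04 CPM per kilobase, had lower means there than Unc13a at 21.7 ± 1.96 and Rims2 at 15.5 ± 0.473, and the gap to Rims2 lay within their spread. In wild type replicate 2 as well, Bsn and Pclo were below Unc13a and Rims2, at 14.6 and 14.1 against 21.5 and 17.3 CPM per kilobase.

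**Figure D2:**
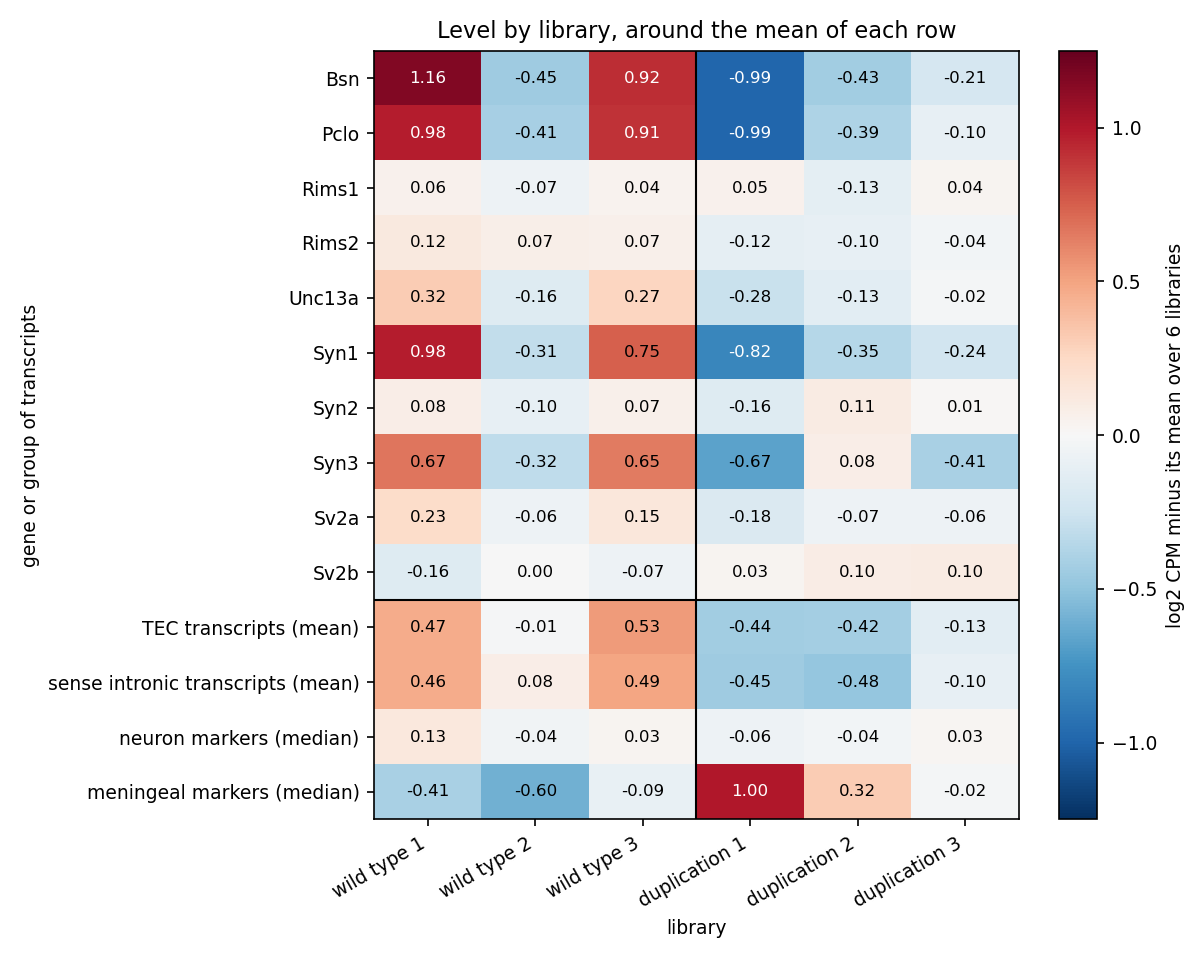
Level of each gene in each library as log2 CPM minus its mean over the 6 libraries (colour and printed value), with the mean of 254 TEC and of 38 sense intronic transcripts (the 2 names with more than 1 annotated gene included) and the median of neuron and meningeal markers below the line. Bsn is at 1.16 and 0.92 in wild type replicates 1 and 3 and at -0.45 in wild type replicate 2, and the TEC row is at 0.47, -0.01 and 0.53 in the same libraries.

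Wild type replicates 1 and 3 were both above each of the other 4 libraries for 6 of the 10 genes, a pattern that was chosen after the values were seen and that 20.9% of all tested genes share. A measure outside the 10 genes was also highest in wild type replicates 1 and 3. In it wild type replicate 2 lay above every duplication library, unlike for Bsn, Pclo and Syn1. Transcripts of the annotation classes TEC (unspliced clusters that still await experimental support) and sense intronic, 290 in all after leaving out 2 names that the annotation gives to more than 1 gene, had a mean log2 level, around each transcript's mean, of 0.47, 0.00 and 0.53 in wild type and -0.44, -0.43 and -0.13 in duplication replicates 1 to 3. The 9 nuclear and unspliced RNAs used as markers, among them Malat1 and Meg3, summed to 8489 to 11150.0 CPM in the wild type libraries and 6639 to 7700.0 CPM in the duplication libraries. None of them was at 0 in any library.

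When the mean level of these 290 transcripts entered the model as a covariate (3 residual degrees of freedom), the log2 fold changes of 8 genes turned from negative to positive. Bsn was at 0.62 ± 0.33, Pclo at 0.66 ± 0.28 and Syn1 at 0.37 ± 0.29, while Rims2 remained at -0.11 ± 0.10 and Sv2b at 0.08 ± 0.10. None passed (edgeR, adjusted p = 0.999 for each), and this fit called 0 of all 15419 tested genes. It also gave the upper end, 0.999, of the ranges of adjusted p over all alternatives above. Across the 6 libraries the covariate had a correlation of -0.86 with genotype, so the 2 cannot be told apart with these libraries. The part of unspliced RNA in the values of these genes was not tested.

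**Figure D3:**
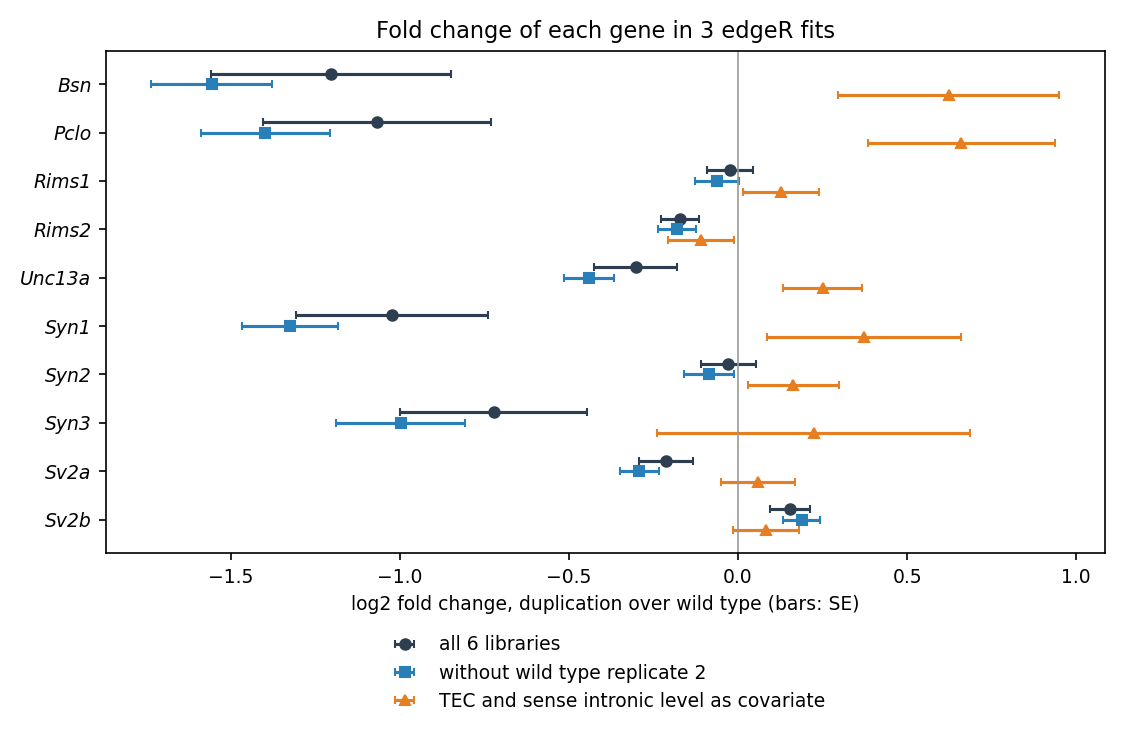
Log2 fold change of each gene, duplication over wild type, with its SE, in edgeR with all 6 libraries (dark circles), without wild type replicate 2 (blue squares) and with the mean level of these 290 TEC and sense intronic transcripts in the model (orange triangles). Bsn, Pclo and Syn1 lie between -1.56 and -1.02 in the first and second fits and between 0.37 and 0.66 in the third.

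Markers of other cells were compared in the same libraries. The 8 markers of meningeal and perivascular fibroblasts, such as Col1a1 and Dcn, summed to 20.8 to 30.2 CPM in the wild type libraries. In the duplication libraries they summed to 30.1 to 63.5 CPM, with duplication replicate 1 at 63.5. That library was the lowest for each of the 10 genes other than Rims1 and Sv2b, and so also for Syn2, which had a log2 fold change of -0.03. The 6 excitatory neuron markers summed to 2893, 2363 and 2637 CPM in wild type and to 2366, 2363 and 2501 CPM in duplication replicates 1 to 3, so wild type replicates 1 and 3 were highest, as for Bsn. Both were above each other library for 4 of these 6 markers and for 5 of the 9 general neuron markers, where 20.9% of all tested genes were. Without wild type replicate 2, 3 excitatory markers fell, Tbr1 and Slc17a7 among them, and 0 rose, where 10.7% of all genes fell and 4.62% rose. In that fit 3 of the 9 neuron markers fell and 1 rose, and 1 inhibitory marker rose. Of the 8 meningeal markers 3 rose, and of the 9 nuclear and unspliced RNAs 6 fell. DESeq2 with all libraries called Tbr1 lower, 3 meningeal markers higher and 4 of the nuclear RNAs lower, against 2% of its genes in either direction. The 9 neuron markers summed to 9786, 9153 and 9251 CPM in wild type and to 9584, 9257 and 9657 CPM in duplication replicates 1 to 3. The 6 inhibitory neuron markers summed to 523.2 to 634 CPM and 523.0 to 550.1 CPM, and the 6 oligodendrocyte markers to 1326 to 2283 CPM and 1187 to 1599 CPM, in wild type and duplication libraries. Astrocyte, microglia and endothelial markers summed to 3190.0 to 3295, 211 to 239.7 and 179 to 196 CPM in wild type and to 3192 to 3418, 240.4 to 248 and 189 to 222 CPM in duplication libraries. No marker of these lists was at 0 in any library. The part of these cells in the results was not tested.

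Among 34 tested other active zone proteins, the median log2 fold change was -0.08. At an unadjusted p under 0.05, 10 were lower and 2 higher, where 12.2% and 7.05% of all tested genes were, and none passed (edgeR, smallest adjusted p = 0.174; 0 by DESeq2). The lowest were the presynaptic calcium channel genes Cacna1a, of P/Q-type channels, at 124 ± 37.2 CPM in the wild type libraries and 76.6 ± 7.80 CPM in the duplication libraries (log2 fold change -0.69 ± 0.20), and Cacna1b, of N-type channels, at -0.45 ± 0.17. The highest were the adaptor genes Lin7b and Lin7c, at 0.19 ± 0.09 and 0.18 ± 0.06. In the fit without wild type replicate 2, 10 of the list fell and 0 rose, where 10.7% of all genes fell and 4.62% rose, with Cacna1a and Cacna1b among the former (edgeR, adjusted p = 0.00191 and 0.00371).

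The fusion machinery, 26 tested genes with a median of -0.03, had 9 genes lower and 3 higher at an unadjusted p under 0.05 (12.2% and 7.05% over all genes) and none past the test (edgeR, smallest adjusted p = 0.162). Vamp2, the vesicle SNARE synaptobrevin, was at 262 ± 85.7 CPM in the wild type libraries and 160.2 ± 22.0 CPM in the duplication libraries, a log2 fold change of -0.71 ± 0.22. Stx1a, a SNARE of the presynaptic membrane, was at 0.18 ± 0.06. Doc2a, a calcium sensor encoded in the duplicated segment itself, was at 0.81 ± 0.15. It was the 1 gene of the list that DESeq2 called, against 2% of the genes in that fit. In the fit without wild type replicate 2, 7 fusion genes fell and 1 rose, Doc2a, against the same 10.7% and 4.62% of all genes.

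**Figure D4:**
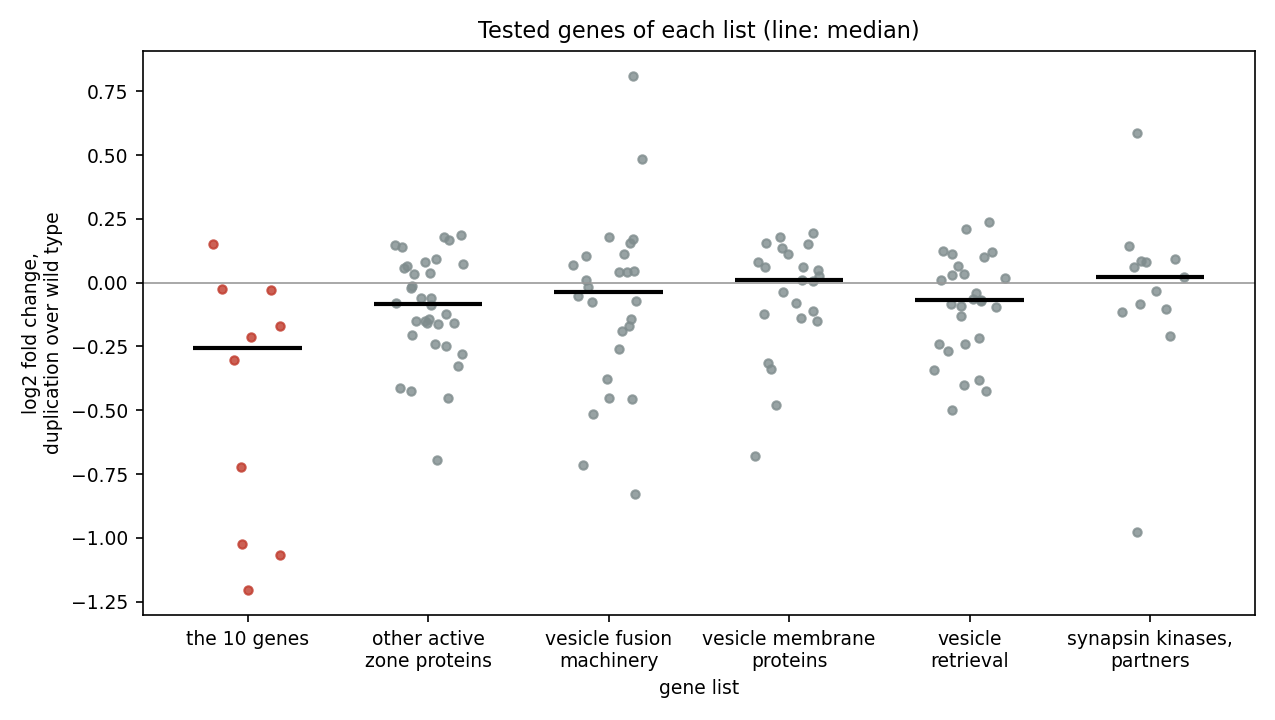
Log2 fold change, duplication over wild type (edgeR, all 6 libraries), of each tested gene of 6 lists, with 1 point per gene and a line at the median of each list. The median is -0.26 for the 10 genes and between -0.08 and 0.02 for the other lists, whose points spread on both sides of 0.

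Proteins of the vesicle membrane, 23 tested genes, had a median of 0.01, with 4 lower and 5 higher at an unadjusted p under 0.05 (12.2% and 7.05% over all genes). Sv2c and Sncb, which encodes beta-synuclein, had the lowest log2 fold changes, -0.68 ± 0.21 and -0.48 ± 0.16. Atp6v1a, a subunit of the vesicle proton pump, had the highest, 0.20 ± 0.06. None passed in edgeR (smallest adjusted p = 0.175), and DESeq2 called 1 lower, Sv2c, against 2% of its genes in either direction. Leaving out wild type replicate 2, 5 fell (Sv2c, Slc17a7, Slc6a17, Atp6v0a1 and Sncb) and 2 rose, Atp6v1a among them, against 10.7% and 4.62% of all genes.

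Genes of vesicle retrieval, 28 tested with a median of -0.07, had 9 lower and 2 higher at an unadjusted p under 0.05 (12.2% and 7.05% over all genes) and none past the test (edgeR, smallest adjusted p = 0.174; 0 by DESeq2). Dnm3, a dynamin, and Sh3gl2, which encodes endophilin A1, had the lowest log2 fold changes, -0.50 ± 0.18 and -0.42 ± 0.18. Eps15, an endocytic adaptor, and Ppp3ca, the catalytic subunit of calcineurin, had the highest, 0.24 ± 0.06 and 0.21 ± 0.06. Leaving out wild type replicate 2, 9 fell and 2 rose, Eps15 and Ppp3ca, against 10.7% and 4.62% of all genes.

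Of 13 tested kinases, partners and regulators of synapsins, with a median of 0.02, 1 was lower and 2 higher at an unadjusted p under 0.05 (12.2% and 7.05% over all genes), and none passed (edgeR, smallest adjusted p = 0.163). Nos1ap, an adaptor of neuronal nitric oxide synthase, was at 102 ± 44.3 CPM in the wild type libraries and 51.7 ± 14.3 CPM in the duplication libraries, a log2 fold change of -0.98 ± 0.32. Rcor1, a corepressor that works with REST, was at -0.21 ± 0.10. Mapk3, the kinase gene of the duplicated segment whose product phosphorylates synapsin I, was at 0.59 ± 0.12. It was the 1 gene of the list called by DESeq2, against 2% of the genes in that fit. Prkacb, a catalytic subunit of protein kinase A, was at 0.14 ± 0.05. Without wild type replicate 2, Nos1ap fell, and Mapk3 and Prkacb rose (edgeR, adjusted p of 0.00234, 0.0126 and 0.0469). In that fit 10.7% of all genes fell and 4.62% rose.

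Among 9183 other genes with a mean of at least 10 CPM, the levels most like those of Bsn over the 6 libraries were those of Lrp1, a lipoprotein receptor, Papd7, a poly(A) polymerase, Unc5a, a netrin receptor, Prpf8, a core protein of the spliceosome, and Tnrc6b, of microRNA silencing, with Pearson r of log2 CPM between 0.9992 and 0.9996. Those most like Syn1 were Chst1, a sulfotransferase, Wdfy3, an autophagy adaptor, Kif1b, a motor of vesicle precursors, Abca2, a lipid transporter, and again Lrp1. Lrp1 was at 576, 278 and 519 CPM in wild type replicates 1 to 3 and at 218, 281 and 303 CPM in duplication replicates 1 to 3, a log2 fold change of -0.78 ± 0.24 (edgeR, adjusted p = 0.175). An r above 0.95 was found for 793 genes with Bsn and 800 with Syn1, and these values are descriptions across 6 libraries of 2 separate sets. Genes most like Bsn ranged in log2 fold change from -0.78 for Lrp1 to -0.15 for Papd7, so a like order of libraries came with changes of unlike size.

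In length and composition the 10 genes were not alike. Bsn and Pclo had the longest transcripts, of 15938 and 20084 bases, with 59.8% and 45.4% GC. Syn1 had the shortest, of 3261 bases with 57.9% GC. Exons made up 16.9% of the span of Bsn, 6.44% of Pclo and 5.45% of Syn1, the 3 genes with the largest fold changes. They made up 1.42% of Rims1, 4.78% of Syn2 and 32.3% of Sv2a, which were at -0.02, -0.03 and -0.21. For Syn3, Unc13a, Rims2 and Sv2b the shares were 2.77%, 26.7%, 2.14% and 4.31%, with log2 fold changes of -0.72, -0.30, -0.17 and 0.15.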

How the data were processed

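RNA sequencing of 3 wild type and 3 duplication libraries was analysed. The authors deposited un-normalized gene counts, made with cutadapt, TopHat2 and HTSeq on mm10 per the submitters' processing notes; versions, annotation and strand setting are not given in the sources read here. The 6 tables of single libraries equalled the joint table. It has 45807 lines of counts and 45801 names, 25 of them turned into date serial numbers. Names had slipped against counts in 6 steps (65.1% of names by 1 line or more) and were shifted back. Names within 25 lines of a step were not used, which left 312 lines unnamed, holding 0.61% to 0.64% of a library's counts, out of library sizes and tests. As an example, the wild type libraries held 53 counts of Bsn under the names as deposited and 20582 after the shift. Of the used names, 91.7% were found in the annotation of the same build (GENCODE M21), which gave positions, classes and exon lengths.

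The 2 groups were compared by edgeR 4.0.16 under R 4.3.3 (TMM factors, filterByExpr by group, quasi-likelihood F-test, Benjamini-Hochberg adjusted p under 0.05 over 15419 genes). The common dispersion had a square root of 0.0951. A log2 fold change is that of duplication relative to wild type, and log2 CPM was computed with a prior count of 2. The script was tested on simulated counts. Ratios were compared with the exact permutation test, two-sided. Alternatives were DESeq2 1.42.0, limma-voom (limma 3.58.1), other scaling factors, filters, names and library sizes, libraries left out, the replicate number as a block, and the TEC and sense intronic level as a covariate. The 10 genes, the gene lists and the alternatives were chosen with earlier results of these data known. Of each list, the text names the 2 genes with the lowest and the 2 with the highest log2 fold change at a mean of at least 10 CPM, any past the threshold, and the paralogs of the 10 genes. Some of the genes this rule names are not reported here. For Bsn and Syn1 it names the 5 most similar genes. Promoter windows come from RefSeq (GRCm38.p6). The labels name no molecular identifiers, and reads need not be separate molecules.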

Additional observations from a re-analysis of the deposited data

How the results depend on the processing

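Rims2 kept its direction and its side of the threshold in every alternative run, and of the 10 genes Bsn, Pclo, Unc13a, Syn1, Syn3, Sv2a and Sv2b passed in at least 1. Genes past the threshold, 0 in edgeR with all libraries, numbered 285 with DESeq2, 1016 with no filter on low counts, 7 with the replicate number as a block, 1324 without both libraries numbered 2, and 0 to 2404 when 1 library was left out. For the 10 genes, other active zone proteins, fusion machinery, vesicle membrane, retrieval and synapsin kinases, in this order, calls were 4, 4, 4, 4, 7 and 2 with no filter and 6, 7, 6, 4, 10 and 2 without both libraries numbered 2. With 1 library left out they ranged from 0 to 7, 10, 8, 7, 11 and 3, each maximum without wild type replicate 2. In edgeR with all libraries, 10, 34, 26, 23, 28 and 13 genes of these lists were tested. Of all genes, 3.84% passed with no filter, 8.49% without both libraries numbered 2 and 15.3% without wild type replicate 2. DESeq2 called 1 gene each of fusion machinery, vesicle membrane and kinases, against 2% of its genes.

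With no filter the log2 fold changes of Bsn, Pclo, Syn1 and Syn3 passed at -1.20, -1.06, -1.02 and -0.71. Without both libraries numbered 2 those of Bsn, Pclo, Unc13a, Syn1, Syn3 and Sv2a passed at -1.59, -1.42, -0.44, -1.37, -1.22 and -0.31. With 1 library left out, log2 fold changes ranged from -1.56 to -0.90 for Bsn, -1.40 to -0.84 for Pclo, -0.063 to 0.034 for Rims1, -0.20 to -0.15 for Rims2, -0.44 to -0.21 for Unc13a, -1.32 to -0.77 for Syn1, -0.088 to 0.044 for Syn2, -0.997 to -0.55 for Syn3, -0.29 to -0.15 for Sv2a and 0.11 to 0.19 for Sv2b. With the TEC and sense intronic level as a covariate the sign turned for Bsn (0.62), Pclo (0.66), Rims1 (0.13), Unc13a (0.25), Syn1 (0.37), Syn2 (0.16), Syn3 (0.22) and Sv2a (0.060), and medians were 0.19 for the 10 genes, 0.04 for active zone, 0.08 for fusion, 0.05 for vesicle membrane and 0.05 for retrieval genes. Rims1 turned to 0.0026 with upper-quartile factors and 0.00039 without wild type replicate 1, and Syn2 to 0.0049 without that replicate. With the names as deposited, where other genes' counts stand under these names, Unc13a was at 0.16, Syn1 at 0.027, Syn2 at 0.10 and Sv2b at -0.39, Pclo was not tested, and medians were 0.03 for active zone and -0.03 for kinase genes. The vesicle membrane median was 0.03 with upper-quartile factors, and the kinase median ranged from -0.04 to 0.06 with 1 library left out. The cause of these changes was not tested, other than for the names. No scaling or filter moved the median of all genes by over 0.1.

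Same-numbered libraries deviated from their group means with correlations of 0.10, 0.06 and 0.31. Wild type replicates 1 and 3 each correlated best with the duplication library of the same number. Wild type replicate 2 correlated best with duplication replicate 1, at 0.16. Xist and Y-linked levels matched by number. The labels do not say that the numbers mark animals or batches. They were therefore not taken as pairs, and the block was run as an alternative. With the replicate number as a block 0 of the 10 genes passed, with log2 fold changes of -1.09 for Bsn, -0.99 for Pclo and -0.95 for Syn1. Syn3 had the fewest counts of the 10 genes, 101 to 190 a library.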
